A study of Mus musculus with 8 samples.

Results

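The 9 genes described here (B2m, Tap1, Tap2, Tapbp, Nlrc5, Erap1, Calr, Canx and Pdia3) build, control or assist the machinery that loads peptides onto MHC class I molecules. They were taken by symbol from the platform's table of probe sets and genes, which gave 20 probe sets of the 45037 on the array that are not controls. All 9 genes were among the 12520 genes tested, each through its brightest probe set. Of the 20 probe sets 17 passed the filter on low values, and the other 3, all of Tap1, were too dim. The cells were CD8 T cells of C57BL/6 mice, isolated from spleen by positive selection on magnetic beads. The culture lasted 18 h, with 10 T cells for each dendritic cell grown from bone marrow. Dendritic cells were then removed through CD11c, and each RNA went onto 1 Affymetrix array. The 4 groups, of 2 arrays each, were wild-type (WT) T cells with non-pulsed dendritic cells, and WT, PKC theta KO and p50 cRel DKO T cells with dendritic cells carrying the ovalbumin peptide N4. PKC theta is a kinase between the T cell receptor and NF-kB, and p50 and cRel are NF-kB subunits. No knockout culture without peptide was part of the design. Age and sex of the mice, how the alleles were made and the antigen receptor of the T cells are not given in the sources used here.

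Class I molecules show short peptides from a cell's own proteins to CD8 T cells. A heavy chain folds in the endoplasmic reticulum (ER) with the help of the lectin chaperone calnexin (Canx), pairs with beta-2 microglobulin (B2m), and then joins the loading complex. There the TAP transporter, a dimer of Tap1 and Tap2, brings peptides in from the cytosol. Tapasin (Tapbp) tethers the empty class I molecule to TAP and selects for tightly bound peptides, working with the disulphide isomerase Pdia3 and the chaperone calreticulin (Calr), and the aminopeptidase Erap1 trims peptides to fit. Nlrc5 is the transcriptional coactivator of class I genes, which interferons and NF-kB also induce. The genes were read in bulk RNA of the T cell cultures, in which markers of other cell types were also read, as given below. CD8 T cells recognise peptide on class I molecules of other cells and carry class I molecules of their own as well.

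Promoter sequences of 7 of the 9 genes were in the RefSeq table used (build GRCm38.p6). Those of 4 genes are shown for the following reasons: Tapbp was the gene that differed in the p50 cRel DKO, B2m held both an NF-kB and an interferon motif, and Canx and Pdia3 were among the genes that rose with peptide. The promoter of Erap1, which rose as well and by more, is not printed, and its interferon motif is given below. Each line gives the 250 bases before the annotated start, 5′ to 3′, with capitals at matches to the NF-kB consensus, the interferon-stimulated response element core (ISRE, GAAA on both sides of NN), the gamma-activated site (GAS, TTCNNNGAA) or the CCAAT box, on either strand.
Tapbp, chr17:33919228-33919477, plus strand: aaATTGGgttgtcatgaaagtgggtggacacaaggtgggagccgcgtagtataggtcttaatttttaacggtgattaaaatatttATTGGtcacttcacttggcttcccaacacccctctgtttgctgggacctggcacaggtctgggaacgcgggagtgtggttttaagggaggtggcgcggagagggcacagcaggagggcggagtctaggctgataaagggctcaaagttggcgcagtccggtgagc
B2m, chr2:122147437-122147686, plus strand: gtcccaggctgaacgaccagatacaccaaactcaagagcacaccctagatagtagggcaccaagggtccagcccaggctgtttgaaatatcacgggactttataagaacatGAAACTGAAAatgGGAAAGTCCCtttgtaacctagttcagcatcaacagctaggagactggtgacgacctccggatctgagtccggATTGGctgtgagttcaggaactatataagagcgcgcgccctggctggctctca
Canx, chr11:50325674-50325923, minus strand: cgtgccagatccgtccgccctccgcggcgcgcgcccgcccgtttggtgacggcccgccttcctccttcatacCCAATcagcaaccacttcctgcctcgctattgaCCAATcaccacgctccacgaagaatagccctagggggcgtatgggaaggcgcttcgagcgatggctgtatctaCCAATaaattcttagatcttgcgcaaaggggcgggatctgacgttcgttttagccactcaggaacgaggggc
Pdia3, chr2:121413652-121413901, plus strand: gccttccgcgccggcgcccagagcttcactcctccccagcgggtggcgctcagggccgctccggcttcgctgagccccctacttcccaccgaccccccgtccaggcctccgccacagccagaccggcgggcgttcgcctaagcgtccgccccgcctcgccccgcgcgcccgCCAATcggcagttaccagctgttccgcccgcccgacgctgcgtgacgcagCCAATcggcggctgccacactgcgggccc

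Motifs were searched over the 250 bases before to 50 after the start in all 32851 promoters of the table. The B2m window held 1 NF-kB consensus match, at bases -126 to -117 from the start, and 1 ISRE core at -139 to -130. Such matches occurred in 8.46% and 3.44% of all promoters. In the Tapbp window these letters were not found, and it held 2 CCAAT boxes. The Canx window held 3 CCAAT boxes and that of Pdia3 held 2, against 37.4% of all promoters with at least 1. Erap1 had an ISRE core across its start, and Calr an NF-kB consensus match at -180 to -171. No GAS, which 8.30% of promoters held, was found in the 7 windows. A match is a description of the letters and not a site of binding, and factors can bind outside these windows.

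The arrays were read on 1 scale, with the same trimmed mean on each, and the pair of arrays in each group correlated across genes at a Pearson's r of 0.977 to 0.987. Whether paired arrays stem from separate animals or cultures is not stated, so p-values measure the spread between these samples only, which may be technical. Levels and differences below are of log2(signal + 16), a scale that understates changes of dim genes, and a level is compared only within a gene. As a check of the labels, Rel, which encodes cRel, lay at 6.19 and 5.92 on the p50 cRel DKO arrays and between 8.97 and 10.09 elsewhere. The gene of p50 was not read as such a check, so its loss rests on the label. Prkcq, which encodes PKC theta, averaged 10.88 ± 0.18 (SD, n = 2) on the PKC theta KO arrays and lay between 11.30 and 11.90 elsewhere; whether its probes lie in the deleted part was not tested. The genotypes also differed in a transcript of the Y chromosome, Eif2s3y, which lay between 10.65 and 11.20 on WT arrays and between 5.42 and 6.73 on knockout arrays. Differences between knockout and WT cells cannot be told apart from that one. CD8 T cell markers were bright on all arrays: the signals of the 8 measured (Cd8a, Cd8b1, Cd3e and others) summed to 36453 and 39360 in WT non-pulsed cultures and to between 43771 and 60762 in N4 cultures.

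With N4 peptide, WT cultures had less transcript of tapasin and of Tap2 and more of Erap1, Canx and Pdia3. Tapbp was 2.66-fold lower, Tap2 1.72-fold lower, Erap1 1.70-fold higher, Canx 1.33-fold higher and Pdia3 1.31-fold higher. The remaining 4 genes, Tap1, B2m, Nlrc5 and Calr, did not pass the test. Thus 3 of 9 rose and 2 fell, by limma at a false discovery rate of 0.05 (Benjamini-Hochberg, all genes tested). Of all genes tested 40.7% passed, 17.2% higher and 23.5% lower, so the share among these 9 is near that of the arrays as a whole. Their median difference was 0.01 and their mean -0.11, against a median of -0.10 and a mean of -0.26 over all genes. After quantile normalization the median of the 9 was -0.11, below the 0.09 of all genes, and after median centring it was 0.41, against 0.30.

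**Figure D1:**
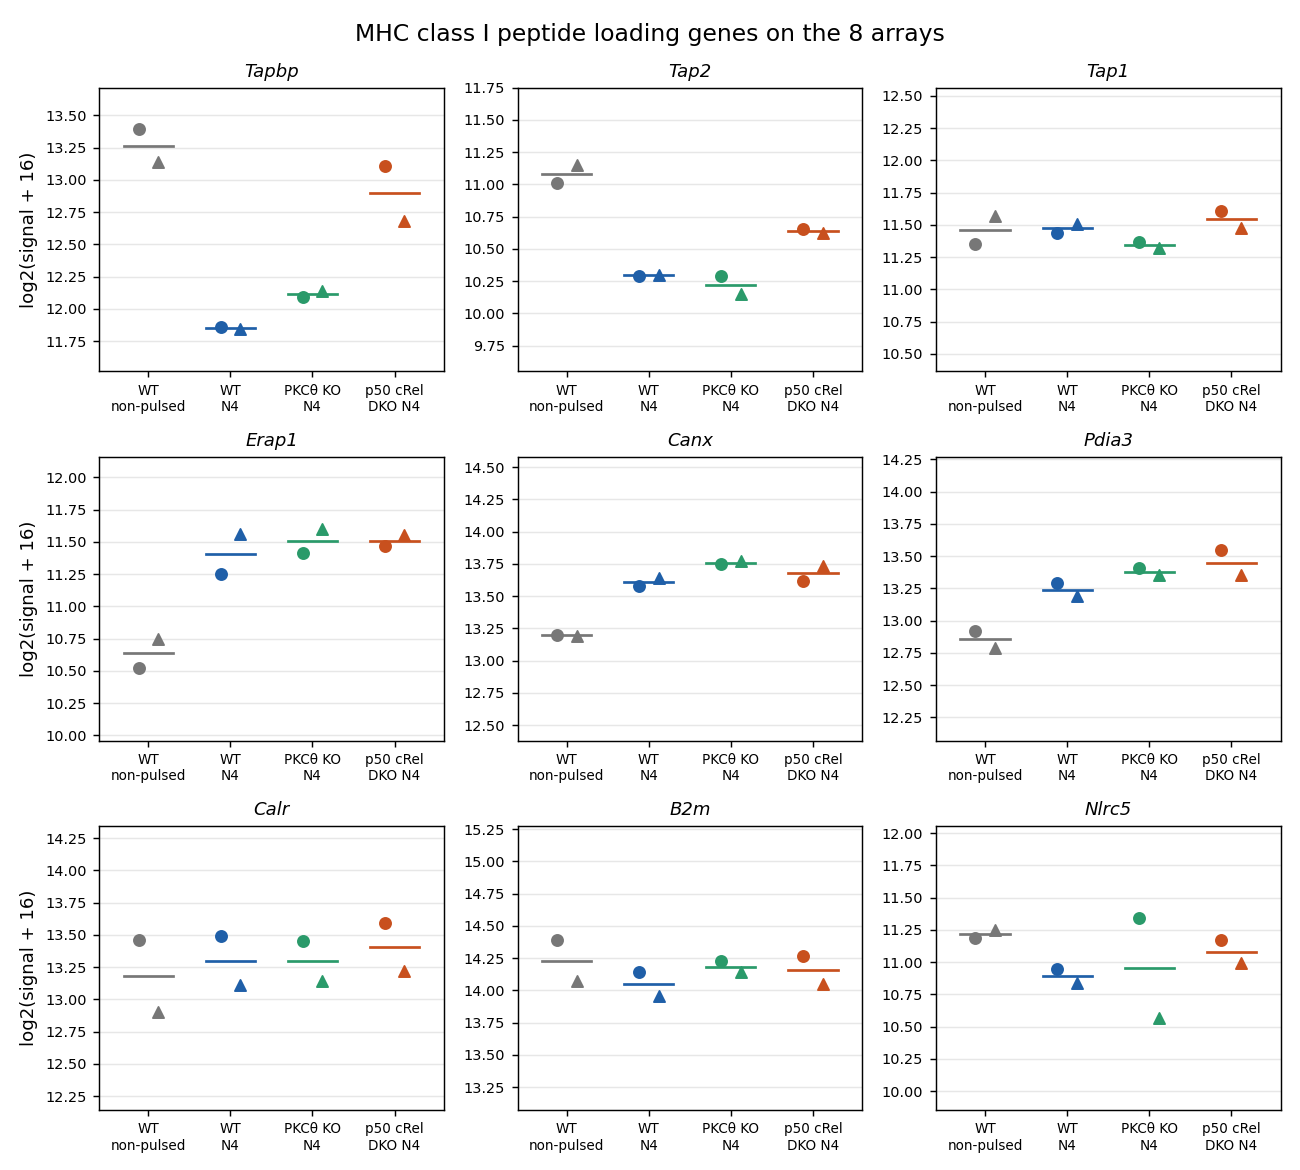
Levels of the 9 genes, as log2(signal + 16), on each of the 8 arrays (circle, replicate number 1; triangle, number 2), with a line at the mean of each group; all panels span the same number of log2 units. Tapbp lies at 13.39 and 13.14 in WT non-pulsed cells, at 11.86 and 11.84 in WT N4 cells and at 13.11 and 12.68 in the p50 cRel DKO.

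Within the loading complex, the transporter and its bridge moved unequally. Tapbp read 13.39 and 13.14 in WT non-pulsed cells and 11.86 and 11.84 in WT N4 cells. The groups lay far apart relative to their spread, and Tapbp fell by 1.41 (SE 0.16, n = 2 arrays a group, limma adjusted p = 2.77e-04). Its second probe set read lower with peptide as well, from 9.65 and 9.43 to 8.42 and 8.46, a difference of -1.10. Tap2, one chain of the transporter, read 11.01 and 11.15 without peptide and 10.29 and 10.30 with it, again with no overlap. It fell by 0.79 (SE 0.14, limma adjusted p = 0.00227). Tap1, the partner chain, read 11.35 and 11.57 without peptide and 11.44 and 11.51 with it. Its arrays overlapped, and the difference of 0.01 had a 95% interval of -0.30 to 0.32, which does not reach the fall of Tap2; the difference between the 2 chains was itself not tested. The fall of Tap2 did not pass after median centring (-0.39, limma adjusted p = 0.343).

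Erap1, the trimming peptidase, went the other way. It read 10.52 and 10.75 in WT non-pulsed cells and 11.25 and 11.56 in WT N4 cells, and it rose by 0.77 (SE 0.16, limma adjusted p = 0.00515). All N4 arrays of Erap1, of every genotype, lay above both non-pulsed arrays. Its other probe set read 9.98 and 10.01 without peptide and 10.52 and 10.17 with it, a difference of 0.35 that did not pass (limma adjusted p = 0.168 over probe sets).

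Of the ER chaperones, Canx and Pdia3 were higher with peptide and Calr was not measurably so. Canx read 13.20 and 13.19 in WT non-pulsed cells and 13.58 and 13.64 in WT N4 cells, with little spread inside either group. It rose by 0.41 (SE 0.11, limma adjusted p = 0.0140), and its other probe sets differed by 0.79 and 0.50. Pdia3 read 12.92 and 12.79 against 13.29 and 13.19, and rose by 0.39 (SE 0.12, limma adjusted p = 0.0321). Its second, dimmer probe set differed by 0.33 and did not pass (limma adjusted p = 0.413 over probe sets). Scaling moved both genes: with quantile normalization Canx was 0.27 (limma adjusted p = 0.130) and with median centring 0.81 (0.0692), neither past the test. Pdia3 was 0.23 with the first, which passed (limma adjusted p = 0.0364), and 0.79 with the second, which did not. These rises were small, and of 20 alternatives Canx passed in 14 and Pdia3 in 9. Pdia3 was also lost with no filter (limma adjusted p = 0.0589), with the mean of its probe sets (0.0712) and with only the 2 groups compared (0.0695). Neither gene passed without the mean-variance trend (limma adjusted p = 0.0614 for Canx and 0.0940 for Pdia3). Canx did not pass without WT non-pulsed array 2 (limma adjusted p = 0.0519), WT N4 array 1 (0.0650) or WT N4 array 2 (0.0917). Pdia3 did not pass without any one of the 4 WT arrays or of the 2 PKC theta KO arrays (limma adjusted p from 0.0511 to 0.175). The count of 5 genes became 3, leaving Tapbp, Tap2 and Erap1, without WT non-pulsed array 2 or either WT N4 array, and 2, Tapbp and Erap1, after median centring.

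Calr read 13.46 and 12.90 in WT non-pulsed cells and 13.49 and 13.11 in WT N4 cells. The arrays overlapped, and the difference of 0.12 had a 95% interval of -0.40 to 0.63, wide enough to hold rises as large as those of Canx and Pdia3. In Calr the array numbered 2 lay below that numbered 1 in each of the 4 groups, by 0.56, 0.38, 0.30 and 0.37, which widened its spread. B2m and Pdia3 were lower in number 2 in all 4 groups as well.

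B2m, the invariant light chain of class I, read 14.39 and 14.07 in WT non-pulsed cells and 14.14 and 13.96 in WT N4 cells. These overlapped, and the difference of -0.18 had a 95% interval of -0.51 to 0.15. Its signals of 15870 to 21458 lay near the top of the arrays' range, whose brightest probe sets read 22353 to 28994, and whether they were saturated was not tested. Nlrc5, the coactivator, read 11.19 and 11.25 without peptide and 10.95 and 10.84 with it. Those arrays did not overlap, but the difference of -0.32 (95% interval -0.84 to 0.20) did not pass (limma adjusted p = 0.307). Differences of B2m, Tap1, Nlrc5 and Calr each changed sign under at least 1 of the scalings tried, without passing.

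**Figure D2:**
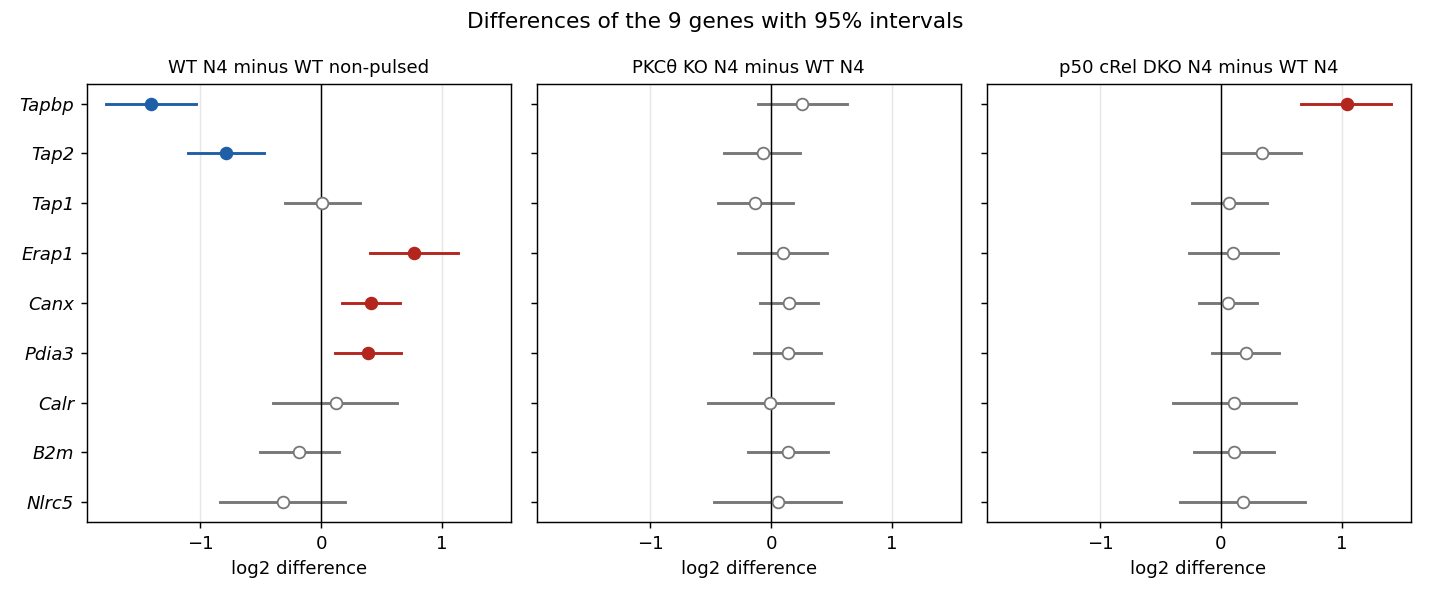
Log2 differences of the 9 genes with 95% intervals from limma, for WT N4 minus WT non-pulsed, PKC theta KO N4 minus WT N4 and p50 cRel DKO N4 minus WT N4. Filled points passed at an adjusted p under 0.05 (red higher, blue lower) and open grey points did not; the right-hand panels share the WT N4 arrays, and 1 filled point, that of Tapbp at 1.04, stands in them.

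Markers of further cell types moved with peptide too, beside every difference from non-pulsed cells given here. The signals of 12 measured B cell markers summed to 58044 and 40135 in WT non-pulsed cultures and to between 836 and 4456 in the 6 N4 cultures. Sums of 13 dendritic cell and macrophage markers were 71390 and 55987 against 2214 to 5662, and those of 6 neutrophil markers 23631 and 26022 against 291 to 836. In WT cells 12 of 12 B cell, 12 of 13 dendritic cell and macrophage, and 6 of 6 neutrophil markers fell. On N4 arrays these markers ranged widely. Ms4a1 of B cells read from 6.57 to 10.25 and Lyz2 of macrophages from 8.16 to 11.28. Others read lower, with S100a9 of neutrophils down to 4.24 and Pax5 of B cells down to 4.36, under the 5.38 used as filter. What part such cells had in the fall of Tapbp and Tap2 was not tested. In bulk RNA fewer cells of a type and less RNA per cell cannot be told apart. All measured genes of the MHC class II pathway, which B cells and dendritic cells carry, fell as well (9 of 9, median -3.46), with H2-Ob at -4.99, H2-Oa at -2.97, H2-DMa at -2.96 and the protease Ctss at -2.16.

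Lists of related genes in WT cells are set beside all genes, whose median was -0.10 and whose balance of calls turned with the scaling, from 42.3% higher to 61.1% after median centring; differences between the lists were not tested. Of 8 measured heavy chains, immunoproteasome subunits and related genes 3 fell, 1 rose and 4 did not pass (median -0.31), a share that passed near the 40.7% of all genes. H2-M3, a nonclassical heavy chain, fell by 1.66, and the immunoproteasome subunits Psmb10 and Psmb8 fell by 0.84 and 0.51. Tapbpl, the tapasin relative that edits peptides outside the loading complex, rose by 1.06 (SE 0.31, limma adjusted p = 0.0255). It read 9.85 and 10.92 without peptide and 11.43 and 11.47 with it, so its non-pulsed arrays were unequal; tapasin and its relative differed in opposite directions. The classical heavy chains H2-K1 (-0.28) and H2-D1 (-0.33), named after their values were seen, did not pass. Their probe sets may also read other class I genes of near-identical sequence.

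Of 25 measured regulators of class I transcription 11 fell, 3 rose and 11 did not pass (median -0.56), where 23.5% of all genes fell and 17.2% rose. Irf2 fell by 1.79, the interferon regulatory factor Irf7 by 2.89, and the type I interferon receptor chains Ifnar1 and Ifnar2 by 1.39 and 1.25. Of 31 interferon-stimulated genes 21 fell and 2 rose (median -1.94), against the same shares of all genes, with Rtp4 at -4.60, Ifit3 at -3.78, the RNA sensor Ifih1 at -3.41 and Isg20 at -2.63. Igtp was among the 2 that rose, by 0.99. A further 8 did not pass. Among them Iigp1 (1.53) and Gbp2 (0.32) read higher, and Irgm1 (-0.04), Ifi47 (-0.07) and Gbp6 (-0.72) read lower. Tap1, which interferons also induce, differed by 0.01.

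Of 19 measured genes of peptide supply and trimming 10 rose and 0 fell by limma (median 0.38). Of all genes 17.2% rose and 23.5% fell. The list also holds genes of protein import into the ER and of the signal peptidase, and not all that rose make or trim peptides. At an unadjusted p under 0.05 by limma, 0 of the 19 had a negative difference. Of all 12520 genes 6060 passed that looser threshold in either direction, and those that were lower were not counted apart. The peptidase Thop1, which destroys proteasome products in the cytosol, rose by 1.70, the aminopeptidase Lap3 by 1.22, the proteasome activator Psme3 by 1.14 and the protease Ide by 0.74. Of 30 genes of ER folding and the lectin cycle 9 rose, 4 fell and 17 did not pass (median 0.27), a share that passed near the 40.7% of all genes. Mogs, the glucosidase that starts the trimming of glycans read by Canx and Calr, rose by 1.47 and the disulphide isomerase P4hb by 0.82. Ero1b, an oxidase that recharges such isomerases, fell by 2.40, and the stress transcription factor Ddit3 by 1.86.

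**Figure D3:**
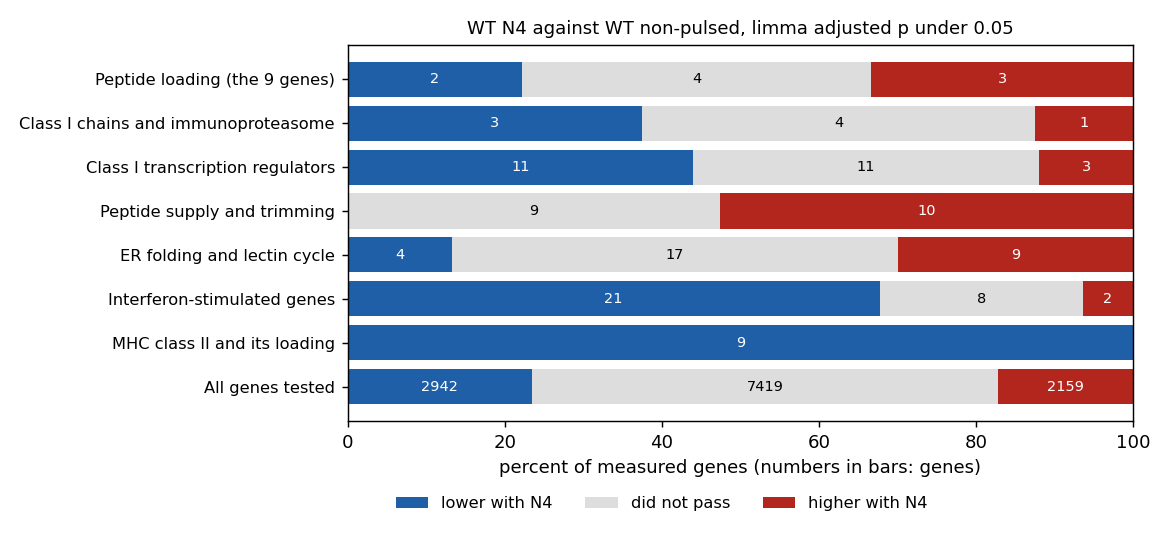
Share of measured genes that fell, did not pass or rose in WT N4 against WT non-pulsed cells (limma adjusted p under 0.05) in the 9 genes, in 6 related lists and over all 12520 genes; numbers in the bars are genes. Of the 9 loading genes 2 fell and 3 rose, of 31 interferon-stimulated genes 21 fell, and of 19 genes of peptide supply 10 rose.

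In PKC theta KO cells none of the 9 genes differed from WT N4 cells past the test. By limma 0 of 9 passed, against 0.0240% of all genes (3 of 12520), and 0 of 9 had an unadjusted p under 0.05, against 371 of all genes. Tapbp read 12.09 and 12.14 in PKC theta KO cells, above the 11.86 and 11.84 of WT N4 cells, a difference of 0.26 (95% interval -0.11 to 0.63, limma adjusted p = 1.00). Tap2 read 10.29 and 10.15 (-0.07, interval -0.39 to 0.24), and Tap1 read 11.37 and 11.32 (-0.13, interval -0.44 to 0.18). Erap1 differed by 0.10 (interval -0.27 to 0.46), Canx by 0.15 (interval -0.09 to 0.39) and Pdia3 by 0.14 (interval -0.14 to 0.41). The intervals thus leave room for small differences in either direction. Nlrc5 was the least even, at 11.34 and 10.57, so its difference of 0.06 had an interval of -0.47 to 0.58. Of the related lists, 0 of 8 class I neighbours, 0 of 25 regulators, 0 of 19 peptide supply genes, 0 of 30 ER folding genes and 0 of 31 interferon-stimulated genes passed in this comparison.

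In p50 cRel DKO cells, tapasin was higher than in WT N4 cells, and it was the only 1 of the 9 genes to pass. Tapbp read 13.11 and 12.68 in the p50 cRel DKO and 11.86 and 11.84 in WT N4 cells. In this probe set both double-knockout arrays lay above all 4 other N4 arrays and below both non-pulsed arrays. The difference of 1.04, or 2.05-fold (SE 0.16, 95% interval 0.66 to 1.41), passed limma at an adjusted p of 0.0374, as 0.519% of all genes did, 0.248% higher. The other probe set differed by 1.01, from 8.42 and 8.46 to 9.63 and 9.28, values that overlapped the 9.65 and 9.43 of non-pulsed cells. The median of the 9 genes was 0.11, against 0.00 over all genes.

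**Figure D4:**
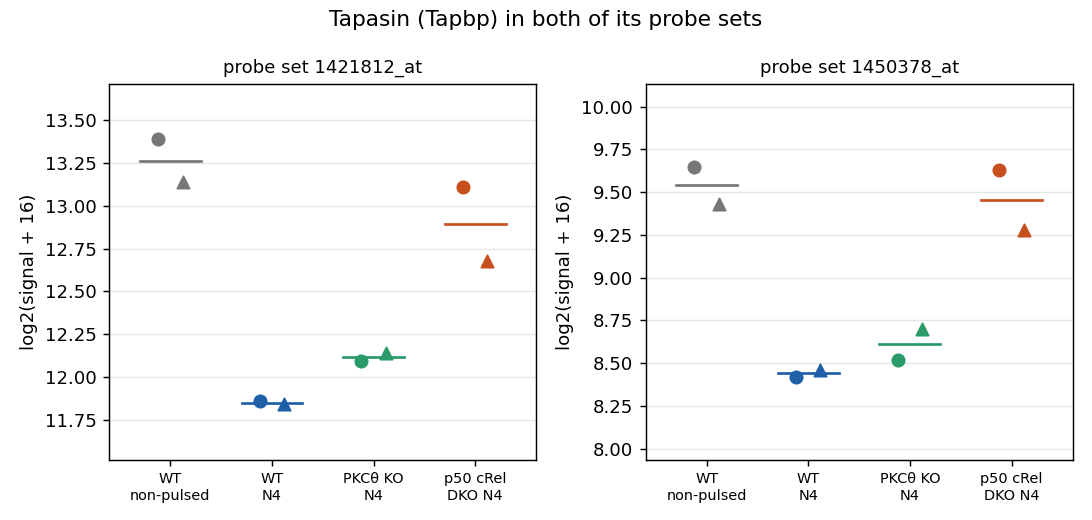
Levels of Tapbp, as log2(signal + 16), in both of its probe sets on each array (circle, replicate number 1; triangle, number 2), with lines at group means. In both probe sets the p50 cRel DKO arrays lie above those of WT N4 and PKC theta KO cells, at 13.11 and 12.68 in the first and 9.63 and 9.28 in the second.

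The size of the Tapbp difference was steadier than its call. It lay between 0.82 and 1.25 in 20 alternatives, of which 7 kept it past the threshold, with limma adjusted p from 0.00749 to 0.555. It was lost without WT N4 array 1 (limma adjusted p = 0.142) or 2 (0.198), without PKC theta KO array 1 (0.0617) or 2 (0.0595), and without double-knockout array 1 (0.283) or 2 (0.0569). When each probe set was tested by itself, the adjusted p was 0.0764 for the first and 0.163 for the second. Markers of other cells are given beside it for arrays of the same number. Among arrays numbered 1, the B cell marker sum was 3301 in WT N4 and 3267 in p50 cRel DKO cultures, and that of dendritic cell and macrophage markers 5662 and 2759, while Tapbp differed by 1.24. Among arrays numbered 2, Tapbp differed by 0.83, with B cell sums of 836 and 3301 and dendritic cell and macrophage sums of 2214 and 2779. Of 8 CD8 T cell markers Cd2 alone differed past the test, by -0.98.

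Tap2 was the next gene in order. It read 10.65 and 10.62 in the p50 cRel DKO, above the 10.29 and 10.30 of WT N4 cells and below the 11.01 and 11.15 of WT non-pulsed cells. Its difference of 0.34 (95% interval 0.02 to 0.66) did not pass over all genes (limma adjusted p = 0.697). Tap1 (0.07), B2m (0.11), Nlrc5 (0.18), Erap1 (0.10), Calr (0.11), Canx (0.06) and Pdia3 (0.21) did not pass either. B2m, with an NF-kB motif in its promoter window, had an interval of -0.22 to 0.44. Its levels of 14.27 and 14.05 in the double knockout overlapped those of WT N4 cells.

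Few genes of the related lists passed in the double knockout. Of 8 class I neighbours 0 passed, with H2-K1 at 0.10 and Tapbpl at -0.44, and 0 of 19 peptide supply and 0 of 30 ER folding genes did. Of 25 regulators only Rel itself did, the gene that was knocked out. The NF-kB subunit Relb differed by 0.93 and the kinase Jak2 by -1.07, short of the threshold (limma adjusted p = 0.142 and 0.0924). Of 31 interferon-stimulated genes 2 rose, Ifit3 by 2.11 and Rtp4 by 1.76, and 29 did not pass (median 0.35). Over all genes 0.519% passed, 0.248% higher, and the median was 0.00.

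Set directly against each other, the knockouts did not differ past the test in any of the 9 genes (0 of 9, against 0.431% of all genes by limma). Of all genes 0.240% were higher and 0.192% lower in the p50 cRel DKO. An unadjusted p under 0.05 by limma was found for 897 of all genes and for 2 of the 9. Those were Tapbp and Tap2. Tapbp was 0.78 higher in the p50 cRel DKO than in the PKC theta KO (95% interval 0.41 to 1.15, limma adjusted p = 0.130), and Tap2 was 0.41 higher (interval 0.10 to 0.73, limma adjusted p = 0.498). Tapbp did pass in this comparison after quantile normalization (limma adjusted p = 0.0378). In rising order of group means, Tapbp ran from WT N4 (11.85 ± 0.01, SD, n = 2) through PKC theta KO (12.11 ± 0.04) and p50 cRel DKO (12.89 ± 0.31) to WT non-pulsed cells (13.27 ± 0.18). On the deposited scale no neighbours in that order differed past the test. After quantile normalization the double knockout differed past it from both of its neighbours, and other settings that change this are in the closing section.

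Against the same WT non-pulsed arrays, PKC theta KO cells with N4 had 5 of 9 genes past the test, 3 higher and 2 lower (40.6% of all genes, 16.5% higher and 24.0% lower). The p50 cRel DKO had 4 of 9, 3 higher and 1 lower (39.3% of all genes, 16.5% higher and 22.8% lower). These comparisons and that of WT cells share their control arrays, and peptide and genotype change together in them. Tapbp was 1.15 lower in PKC theta KO cells (limma adjusted p = 7.91e-04). In the double knockout it was 0.37 lower and did not pass (limma adjusted p = 0.105). That value depended on the setting: it was -0.23 with the mean of both probe sets, of which the second gave -0.09 (limma adjusted p = 0.795 over probe sets), was -0.54 and passed after quantile normalization (limma adjusted p = 0.00690), was 0.02 after median centring, and was -0.59 and passed without double-knockout array 1 (0.0344). Tap2 was lower by 0.86 and 0.44, and passed in both (limma adjusted p = 0.00151 and 0.0321). Without either non-pulsed array or either double-knockout array the double knockout's fall of Tap2 did not pass (limma adjusted p from 0.0663 to 0.171). Erap1 was 0.87 higher in each knockout, Canx 0.56 and 0.47 higher, and Pdia3 0.52 and 0.59 higher, all past the test on the deposited scale. The latter rises were less steady. Canx did not pass after quantile normalization in either knockout (0.35 and 0.31, limma adjusted p = 0.0581 and 0.0881). Pdia3 did not pass in either with the mean of its probe sets (limma adjusted p = 0.0760 and 0.0756), nor in PKC theta KO cells without array 1 (0.0566). Its second probe set differed by 0.18 and 0.12. The second probe set of Erap1 differed by 0.45 and 0.46 and did not pass (limma adjusted p = 0.0836 and 0.0782 over probe sets). Median centring ended the calls of Tapbp and Tap2 in PKC theta KO cells, at -0.74 and -0.45, that of Pdia3 there (0.93), and those of Tap2 and Canx in the double knockout, at -0.05 and 0.86. Nlrc5 in PKC theta KO cells rested on the uneven arrays given above: its difference of -0.26 from non-pulsed cells did not pass, and without array 1 it was -0.65 and passed (limma adjusted p = 0.0226).

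The genes most like 3 of the 9 in pattern were found by Pearson's r over the 8 arrays, given as a description of arrays that share their group structure. Genes with provisional symbols (Gm, LOC, Rik or accession-like names) were left out of this ranking. Nearest to Tap1 were Igfbp2 (r = 0.906), Klhl8 (0.877), Hinfp (0.848), Mtrf1l (0.845) and Gstm7 (0.844). Nearest to Nlrc5 were Son (0.944), Rph3al (0.931), Cradd (0.926), Grifin (0.911) and Xpr1 (0.903), and nearest to Calr were Parvg (0.967), Hnrnpdl (0.965), Chpf (0.965), Ube2s (0.961) and Mrpl10 (0.960). None of these 15 is one of the 9 genes or of the related lists.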

How the data were processed

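Expression was measured on 8 one-colour Affymetrix arrays, 2 in each of 4 groups taken from the sample titles; an array with no replicate number in its title was numbered 1. The deposited values are linear intensity, 1 per probe set; the submitters' processing notes name MAS5 and GCOS 1.4. Every array had a 2% trimmed mean of 500, as the values show. No detection calls were used. The median signal per array was 33.6 to 70.3.

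Probe sets were named through the platform annotation (34945 with 1 symbol, 932 with several, left unnamed, and 9160 not in that table), and 34741 of the symbols were brought up to date through Entrez in RefSeq's GRCm38.p6 table. After log2(signal + 16), probe sets with a mean under the 40th percentile (5.38) were left out, and the brightest probe set stood for a gene. One linear model over all 8 arrays, a coefficient per group and 4 residual degrees of freedom, used limma 3.58.1 under R 4.3.3 with eBayes and a mean-variance trend, and was tested on simulated data. P-values were adjusted by Benjamini-Hochberg over 12520 genes, and 6 comparisons were made. The number of arrays limits the precision.

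All 9 genes were to be named, with the 4 lowest p-values of a related list, the 5 genes nearest in pattern to Tap1, Nlrc5 and Calr, and Prkcq and Rel. Named besides, after their values were seen, are Eif2s3y, Cd2, Ms4a1, Lyz2, S100a9, Pax5 and the markers named below. In WT cells Igtp, Iigp1, Gbp2, Irgm1, Ifi47, Gbp6, H2-K1 and H2-D1 were also named in that way. The genes, lists and tests were chosen with earlier results of these data known. Of markers listed for CD4 T cells 1 of 3 was measured (Zbtb7b), and for NK cells 2 of 5 (Tyrobp and Fcer1g). For erythroid cells 2 of 5 were measured (Hbb-b2 and Car2). All of these fell in WT cells with N4. Whether they mark those cells alone was not tested, so a loss of these cell types is not read from them. Alternatives changed the scaling, pseudocount, filter, probe set rule, variance model, arrays and replicate block.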

Additional observations from a re-analysis of the deposited data

How the results depend on the processing

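The 54 differences of the 9 genes were recomputed in 20 alternatives. None of the differences that passed the test changed sign in any of them. Of the 1080 values 780 belonged to differences that had not passed, which could only gain a call, and 6 did. Among the values of differences that had passed, 46 lost their call. Among differences that had not passed, 51 of 780 values had the opposite sign, none past the test. In WT cells the count of 5 genes was 2 after median centring and 3 without the mean-variance trend, and leaving out 1 array gave 3 to 5. Median centring also gave 2 in place of 5 for the PKC theta KO and 2 in place of 4 for the double knockout against WT non-pulsed cells. The 1 gene of the double knockout against WT N4 cells, Tapbp, became 0 with median centring, no filter, the mean of all probe sets, the most variable probe set, no mean-variance trend, only the 2 groups compared, and each probe set tested by itself (chosen after seeing the data), and 0 to 1 with 1 array left out. The count between the knockouts was 1 in place of 0 after quantile normalization. Causes of these changes were not tested. Titles do not say that a replicate number marks a shared day or animal, and with 2 numbers the pairing cannot be shown, though deviations of same-numbered arrays correlated at 0.25 to 0.58. With the replicate block the counts were 5 in WT cells, 0 for the PKC theta KO and 1 for the double knockout against WT N4, 1 between the knockouts (Tapbp, limma adjusted p = 0.0314), and 5 and 5 for the knockouts against WT non-pulsed cells, where Tapbp in the double knockout passed (limma adjusted p = 0.0369). All genes past the test in WT cells numbered 5101, of which 42.3% were higher, against 52.6% after quantile normalization and 61.1% after median centring.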
